A study of Homo sapiens with 9 samples.

Results

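The TET and DNA methyltransferase gene loci were taken as 8 windows of the human genome (hg19), 1 for each of TET1, TET2, TET3, DNMT1, DNMT3A, DNMT3B, DNMT3L and UHRF1. A member was any CCCGGG site in these windows with a methylation value in at least 2 libraries of each group. The rule found 68 member sites among the 64313 sites of the genome that met the same condition. DNMT3A held 25 of them, DNMT3B 9, UHRF1 8, TET1 7, TET3 6, DNMT1 5, and TET2 and DNMT3L 4 each. The windows listed 229 CCCGGG sites in all, of which 154 had no value in any library.

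The libraries came from HEK293T cells, an easily transfected line of human embryonic kidney origin with the SV40 T antigen. Cells were transfected with pIRES expression plasmids, either empty, with TET1-ALT or with TET1-FL (full-length TET1), and genomic DNA was taken 4 days later, with 3 libraries per group. All groups, controls included, therefore received lipid-transfected plasmid and kept their own TET genes. How many cells took up plasmid and how much TET1 they made is not stated, and no expression was measured, so neither the cell line nor the overexpression was checked against marker genes. Nothing in the labels says that replicates were separate cultures, so the p-values below measure only the spread between these libraries, which may be technical.

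The assay was DREAM, digital restriction enzyme analysis of methylation. SmaI cuts CCCGGG only where its CpG is unmethylated, XmaI then cuts the methylated copies, and the ends left by each enzyme are counted by sequencing. A value required at least 20 reads, per the labels, and the depth behind each value is otherwise unknown. Empty vector replicate 3 had the fewest values of the series, 61549 sites against 66010 to 72340 in the other libraries. It was also the library with no value at 5 members, 1 each in TET1, DNMT1 and UHRF1 and 2 in DNMT3L, so 63 members had values in all 9 libraries.

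DNA methylation in mammals is written and erased by the products of these genes. DNMT3A and DNMT3B place new methyl groups, DNMT3L is a cofactor without catalytic activity that stimulates them and is known from germ cells, and DNMT1 copies the pattern after replication, guided by UHRF1, which binds hemimethylated CpG sites. The TET dioxygenases TET1, TET2 and TET3 oxidise 5-methylcytosine, which can lead to its loss. Active genes usually keep the CpG-rich DNA at their start free of methylation and carry methylation along the body of the gene.

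Members were first tied to gene starts by sequence. RefSeq (GRCh38.p14) gives windows from 250 bases before to 50 bases after each annotated start, and DREAM can read such a window only where it holds CCCGGG. The motif CCCGGG, a palindrome and so the same on both strands, was present in 20.9% of 35116 windows of that length. The matches reported here are those of TET3, DNMT3A and UHRF1, and no window of TET1, DNMT1 or DNMT3B held CCCGGG. Among the listed hg19 sites of chromosome 2, the spacing of the 4 CCCGGG in the first TET3 window occurred at 1 place, inside the TET3 locus. The spacings of CCCGGG pairs in UHRF1 and the downstream starts of DNMT3A each occurred at 1 place in their own locus, but at 18 and 10 places on the whole chromosome, so these matches rest on the locus windows. The CCCGGG pair at the upstream starts of DNMT3A occurred at 2 places in the locus, so it was not used. The stretches below are shown because they place the same cut sequence at gene starts with opposite methylation. Each runs 5′ to 3′ along the gene's strand, with CCCGGG in capitals.
TET3, the 250 bases before the start, GRCh38 chr2:73984660-73984909, plus strand: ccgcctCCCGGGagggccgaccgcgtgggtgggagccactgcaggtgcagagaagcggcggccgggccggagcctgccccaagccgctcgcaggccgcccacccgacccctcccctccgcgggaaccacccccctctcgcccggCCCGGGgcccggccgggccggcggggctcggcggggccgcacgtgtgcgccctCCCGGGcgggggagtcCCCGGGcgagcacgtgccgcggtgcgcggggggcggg
DNMT3A, the 250 bases before the first of its downstream starts, GRCh38 chr2:25252316-25252565, minus strand: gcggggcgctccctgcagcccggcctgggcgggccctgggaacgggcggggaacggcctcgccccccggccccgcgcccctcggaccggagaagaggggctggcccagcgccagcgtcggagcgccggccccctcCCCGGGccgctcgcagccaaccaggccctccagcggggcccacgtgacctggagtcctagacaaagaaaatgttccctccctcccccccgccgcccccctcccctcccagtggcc
DNMT3A, site 43 bases before a further downstream start: tggacggagcCCCGGGgagaccgggg
UHRF1, site 141 bases before a start: ccctgagttcCCCGGGagcatctggg

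At the TET3 window, the sites 244 and 37 bases before the start had mean methylation of 0.076% and 0.436% over the 9 libraries. Of the sites between them, the first had 0.48% and the second, 53 bases before the start, had no value. The UHRF1 sites 141 bases before 1 start and 15 bases after another had 0.04% and 0.091%. The DNMT3A sites 115 and 43 bases before the downstream starts had 95.8% and 91.3%, with single libraries from 94.2% to 97.0% and from 88.8% to 93.3%. So TET3 and UHRF1 were unmethylated at matched starts, and DNMT3A was methylated at its downstream ones. The upstream starts of DNMT3A were not matched, and that locus also holds an unmethylated run, given below. A shorter DNMT3A protein, known from embryonic stem cells and germ cells, is made from an internal start of the gene. The window of the first downstream DNMT3A start holds 28 CpG in 300 bases and that of TET3 45, where the median of all RefSeq windows is 14.

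**Figure D1:**
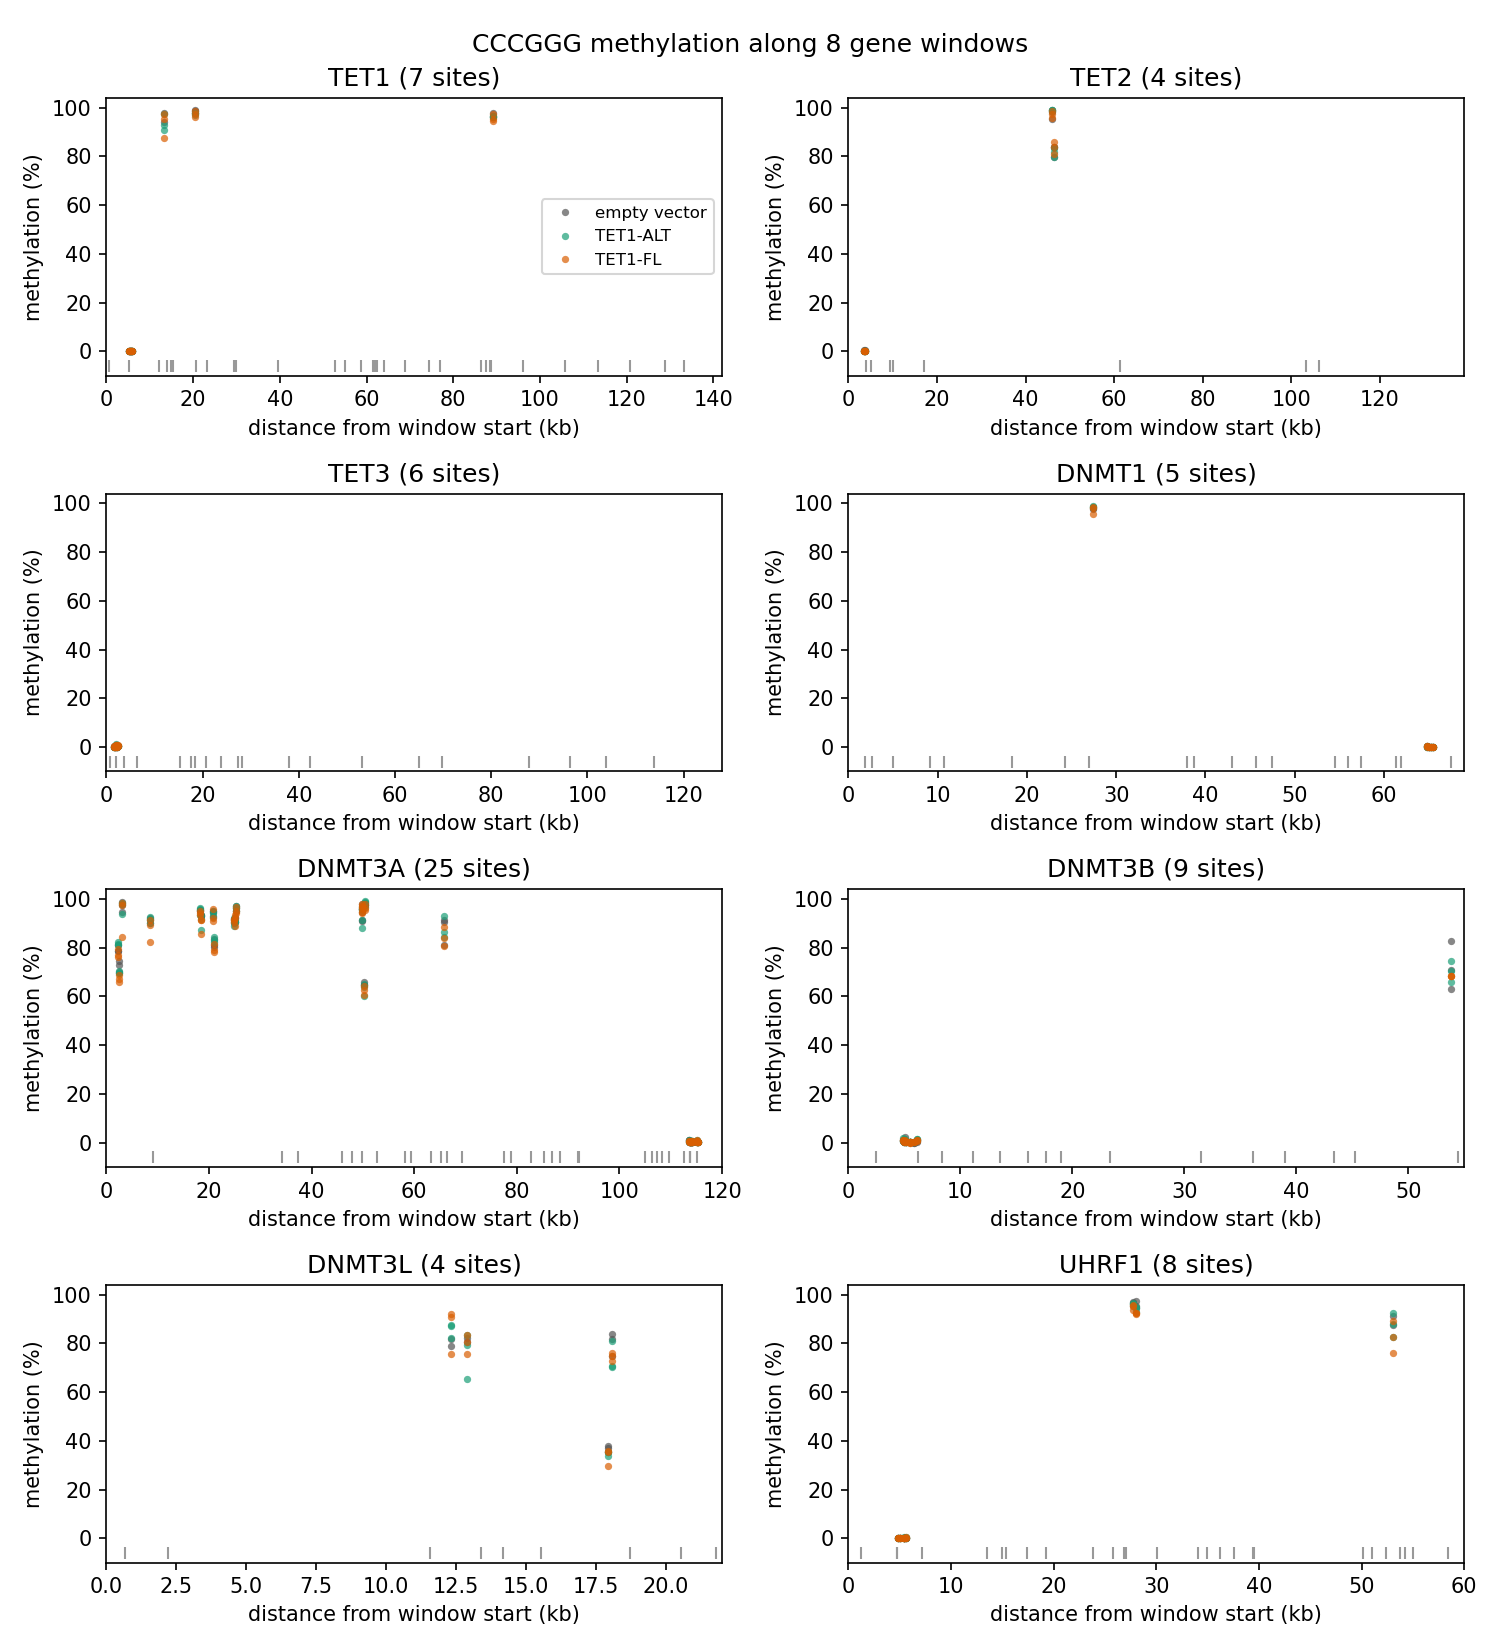
Methylation in percent (vertical axis) at each member site against its distance in kb from the start of the locus window (horizontal axis), 1 panel per locus, with 1 point per library coloured by group. Grey ticks under 0 mark listed CCCGGG sites that are not members, and sites lie near 0% in 1 cluster in 7 of the 8 loci and above 29% elsewhere.

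Member sites fell into an unmethylated and a methylated part with nothing between 5 and 20%. By their mean over the groups, 38 of 68 members (55.9%) were under 5%, beside 37.5% of the 64313 tested sites. Members of 20 to 80% numbered 7, of 80 to 95% 14 and over 95% 9. The tested sites of the genome held 5.91% in the class of 5 to 20%, where the loci had 0. Of the 38 unmethylated members, 36 had at least 3 other listed CCCGGG sites within 1000 bases, beside 58.2% of all tested sites under 5%.

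The 38 unmethylated members formed 7 runs of neighbouring sites, 1 in each locus but DNMT3L, and no methylated member interrupted a run. In TET1 the run was chr10:70320227-70320806 with 4 sites, where the 36 values ranged from 0.04% to 0.31%. In TET2 it was chr4:106067537-106067815 with 2 sites (0.05% to 0.47%), and in TET3 chr2:74211611-74212356 with 6 sites (0.05% to 1.35%). Each of these runs lay near the start of its window, the side on which genes on the plus strand begin. In DNMT1, on the minus strand, the run was chr19:10304823-10305551 at the other end of the window, with 4 sites from 0.02% to 0.4%. The run of DNMT3A, also on the minus strand, was the longest at 1888 bases, chr2:25563481-25565369, with 9 measured sites of 13 listed and values from 0.07% to 0.99%. DNMT3B had 8 sites at chr20:31349886-31351144 (0.03% to 2.34%) and UHRF1 had 5 at chr19:4909785-4910579 (0.02% to 0.7%).

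Single values of 1% or more occurred at 5 of the 38 sites, 4 of them in DNMT3B and 1 in TET3. At the DNMT3B site chr20:31350092 the value of 2.34% was in empty vector replicate 3, the other empty vector libraries had 0.5% and 0.35%, and TET1-ALT replicate 2 had 1.66%. The TET3 value of 1.35% at chr2:74211934 was in TET1-ALT replicate 3, beside 0.37% and 0.47% in the other TET1-ALT libraries. The DNMT3B sites chr20:31349886 and chr20:31351144 had 3 such values each, at 1.04%, 1.73% and 1.22% in replicate 3 of the empty vector, TET1-ALT and TET1-FL, and at 1.06% in empty vector replicate 1 and 1.47% and 1.28% in TET1-ALT replicates 2 and 3. The DNMT3B site chr20:31349980 had 1.12% in empty vector replicate 2.

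**Figure D2:**
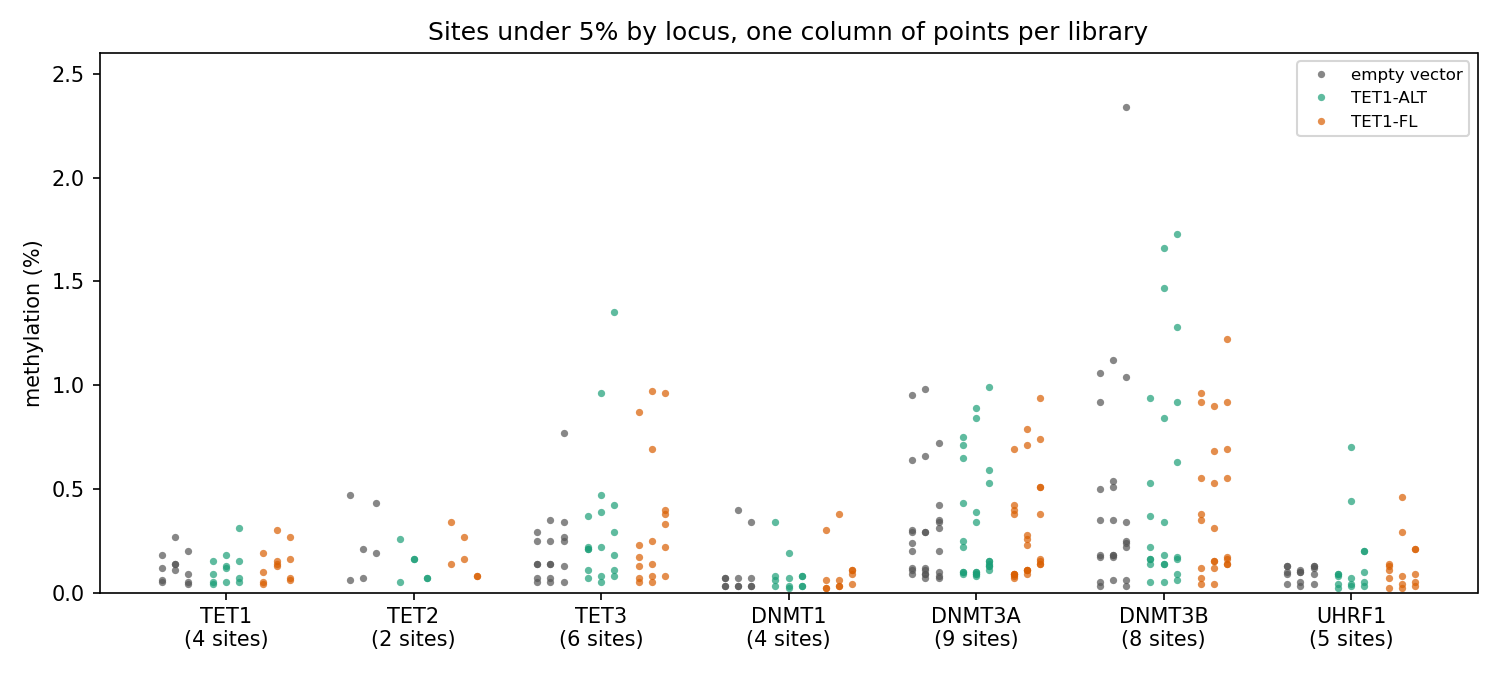
Methylation in percent of the 38 member sites under 5%, by locus, with 1 column of points per library and colour by group. The vertical axis ends at 2.6%, and all values but 1 lie under 1.8%.

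The mean over the 38 unmethylated members was 0.249% ± 0.033 (SD, n = 3) in the controls, 0.287% ± 0.055 for TET1-ALT and 0.271% ± 0.036 for TET1-FL. The library ranges overlapped in each comparison, at 0.228% to 0.287%, 0.224% to 0.324% and 0.236% to 0.308% in the same order. Over all 22785 complete sites under 5% the means were 0.566%, 0.517% and 0.494%, and there every library of both TET1 groups was lower than every control library. The differences of the members from the empty vector were 0.023 points in TET1-FL, with pairwise differences from -0.051 to 0.079, and 0.039 points in TET1-ALT (-0.062 to 0.096). TET1-FL had the lower mean at 13 of 38 members, beside 57.2% of tested sites under 5%, and TET1-ALT at 18 of 38, beside 54.2%. Whether the members differ from the other sites was not tested.

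The run means by gene did not share 1 order of the groups. In TET3 the means were 0.208% ± 0.081 in the empty vector group, 0.322% ± 0.109 in TET1-ALT and 0.337% ± 0.074 in TET1-FL, and in TET2 they were 0.238% ± 0.088, 0.128% ± 0.051 and 0.178% ± 0.086 (SD, n = 3 each). TET1 had 0.121% ± 0.038, 0.116% ± 0.031 and 0.138% ± 0.043. DNMT1 had 0.1% ± 0.044, 0.087% ± 0.037 and 0.104% ± 0.019, and DNMT3A 0.305% ± 0.02, 0.339% ± 0.024 and 0.321% ± 0.078. DNMT3B had 0.454% ± 0.097, 0.518% ± 0.171 and 0.428% ± 0.069, and UHRF1 0.093% ± 0.013, 0.145% ± 0.099 and 0.13% ± 0.043. The mean of each run stayed under 1% in every library. At the DNMT1 site chr19:10305059 each group mean was 0.03%, with single libraries from 0.02% to 0.04%. Neighbouring sites could repeat the same low values. The DNMT3A sites chr2:25563804 and chr2:25564033 both had 0.1%, 0.09% and 0.15% in TET1-ALT and 0.09%, 0.11% and 0.14% in TET1-FL. With the empty vector they had 0.11%, 0.12% and 0.1% against 0.12%, 0.11% and 0.31%. No read depth is given, and whether values this low lie at a floor of the assay was not tested. The same limit applies to group differences at unmethylated sites.

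In the site test, limma on the percentages with Benjamini-Hochberg adjustment over 64313 sites, 0 of 38 unmethylated members passed an adjusted p of 0.05 in any comparison. The largest difference was at the DNMT3B site chr20:31351144, at 0.597% with the empty vector and 1.23% in TET1-ALT (difference 0.633, SE 0.225, limma adjusted p = 0.67). Library ranges were apart in TET1-FL against the empty vector at 2 unmethylated members downwards and 1 upwards, beside 14.1% and 2.35% of complete sites under 5%. In TET1-ALT they were apart at 2 downwards and 1 upwards, beside 14.6% and 2.44%, and the largest of these differences was 0.137 points. Between the TET1 forms 0 were apart downwards and 0 upwards, beside 2.38% and 1.65%, and TET1-FL had the lower mean at 18 of 38, beside 49.6%. The DNMT3B site chr20:31350129 was among the lower ones in both comparisons, which share the empty vector libraries, with 0.203%, 0.157% and 0.137% for empty vector, TET1-ALT and TET1-FL. The other lower site in TET1-ALT was the next DNMT3B site, chr20:31350517. It had nearly the same means with the empty vector and TET1-ALT, 0.197% and 0.153%, and 0.223% in TET1-FL.

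The 30 methylated members lay in every locus except TET3, whose 6 members were all unmethylated. TET1 had 3, and TET1 is also the gene carried on the plasmids. At chr10:70328405, 7599 bases after the run, the values were 97.7% and 94.0% in the empty vector group, 97.5%, 90.7% and 92.8% in TET1-ALT and 97.3%, 95.4% and 87.7% in TET1-FL. At chr10:70335384 all libraries were between 96.2% and 98.9%, and at chr10:70404085 between 94.7% and 97.6%. The libraries overlapped at each of these sites. The differences of TET1-FL from the empty vector were -2.39 (SE 3.27), -1.07 (SE 0.731) and -0.99 points (SE 0.776), with limma adjusted p of 0.847, 0.65 and 0.703. Leaving out single libraries moved them to between -4.28 and 0.475, between -1.755 and -0.47 and between -1.77 and -0.392 points, each extreme without a TET1-FL library. Whether a site lies in a TET1 exon, where plasmid reads could add to it, was not determined here.

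RefSeq places further TET1 starts 39931 and 40137 bases downstream of the first, and a shorter TET1 transcript from an internal start is known in somatic cells. No CCCGGG is present in the windows of these starts. Between the methylated sites at 70335384 and 70404085 the table listed 20 CCCGGG sites, none of them a member. Methylation at a downstream TET1 start is therefore not read by these members.

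TET2 encodes the TET enzyme that lacks a CXXC domain of its own. Its methylated members were a pair 454 bases apart, 42188 bases after the unmethylated run. The site chr4:106110003 had 97.6% ± 1.88 in the empty vector group, 99.0% ± 0.254 in TET1-ALT and 97.3% ± 1.61 in TET1-FL. Its neighbour chr4:106110457 had 82.5% ± 2.37, 81.7% ± 1.86 and 83.7% ± 2.66 (SD, n = 3 each). The second site was lower than the first by 12.8 to 19.5 points in all 9 libraries, and the groups overlapped at both.

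DNMT1 had 1 methylated member, chr19:10267387, 37436 bases from its unmethylated run. Values were 98.2% and 97.6% in the empty vector group, 98.7%, 98.8% and 98.4% in TET1-ALT and 98.1%, 98.6% and 95.5% in TET1-FL. All but the last of these were above 97%. The difference of TET1-FL from the empty vector was -0.52 points (SE 0.94, limma adjusted p = 0.89), without empty vector replicate 3, which had no value.

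DNMT3A had 16 methylated members, more than the other loci together, and 9 of them were at 80 to 95%. The level changed over short distances. At chr2:25499911, 25500259 and 25500417 the means over groups were 96.4%, 63.5% and 97.6%, with 348 and 158 bases between the sites. The middle site, chosen after its values were seen, had 64.6%, 64.6% and 66.0% in the empty vector group, 65.1%, 63.9% and 60.1% in TET1-ALT and 60.5%, 64.3% and 62.6% in TET1-FL. It was lower than the site before it by 29.9 to 37.6 points in all 9 libraries, and the partial level stood in every library of every group.

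A second step stood near the downstream end of the DNMT3A window. The site chr2:25452257 had a mean over groups of 79.5%, chr2:25452404 69.9% and chr2:25452975 95.7%. The middle of these was lower than the next by 17.3 to 31.7 points in all 9 libraries. Such steps were not rare in the genome. Of 16998 pairs of tested sites of 20% or more within 1000 bases of each other, 29.0% differed by at least 20 points, with a median difference of 9.79 points, beside 4 of 13 such member pairs (30.8%) and a median of 9.60.

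DNMT3B, the other de novo methyltransferase, had 1 methylated member at chr20:31398823, 47679 bases after its run. Its values spread widely with the empty vector, at 70.9%, 82.8% and 63.1%, and lay between 65.9% and 74.7% in TET1-ALT. The TET1-FL libraries were close together at 68.5%, 68.2% and 68.5%, inside the range of the empty vector. The TET1-FL difference was -3.89 points (SE 4.66, limma adjusted p = 0.818) and turned to 1.39 points without empty vector replicate 2.

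DNMT3L stood apart in its layout, since none of its 4 members was unmethylated. No RefSeq window was available for DNMT3L, so these members were not tied to a gene start. The site chr21:45680928 was the lowest methylated member of the 8 loci, with 35.6%, 37.0% and 37.8% in the empty vector group, 35.2%, 35.3% and 34.0% in TET1-ALT and 35.9%, 29.7% and 35.2% in TET1-FL. Its neighbour 122 bases on, chr21:45681050, had 83.6%, 74.9% and 81.6%, then 70.1%, 70.8% and 81.0%, then 74.7%, 76.2% and 72.8% in the same order. The pair differed by 34.9 to 48.0 points in every library. The other members, chr21:45675329 and chr21:45675875, had means over groups of 84.0% and 79.0% and values from 75.4% to 91.8% and from 65.3% to 83.5%, with no value in empty vector replicate 3.

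At the lower DNMT3L site all 3 TET1-ALT values were under the lowest empty vector value, at 34.8% ± 0.757 against 36.8% ± 1.13 (difference -1.99 points, SE 1.75, limma adjusted p = 0.88). TET1-FL had 33.6% ± 3.38 there, a difference of -3.20 points (SE 1.75, adjusted p = 0.564), with replicate 2 as its low library and overlapping ranges. It was -1.26 points without that library. At chr21:45681050 both TET1 groups averaged less than the empty vector, at 74.0% ± 6.07 and 74.6% ± 1.71 against 80.04% ± 4.60, with overlapping libraries and limma adjusted p of 0.772 and 0.613.

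UHRF1 had 3 methylated members. At chr19:4933021 the values were 95.5%, 97.2% and 94.6% in the empty vector group, 95.1%, 94.6% and 92.8% in TET1-ALT and 92.3%, 92.1% and 92.4% in TET1-FL. The TET1-FL libraries lay below all libraries of the other groups. The difference from the empty vector was -3.50 points (95% interval -5.52 to -1.48, SE 0.867), with the smallest p of the 68 members, 0.00418 unadjusted and 0.401 after adjustment over all sites (limma). At chr19:4932738, 283 bases before it, TET1-FL had 94.9% ± 1.06 and the empty vector 96.3% ± 0.703 (difference -1.43, SE 0.665, limma adjusted p = 0.499), with overlapping ranges, and the difference was -0.835 without TET1-FL replicate 2. The site chr19:4958042 had 91.1% and 87.6% in the empty vector group, 82.5%, 92.3% and 87.9% in TET1-ALT and 76.1%, 82.6% and 89.4% in TET1-FL. Its difference of -6.62 points in TET1-FL had an SE of 4.31 (limma adjusted p = 0.638), and without TET1-FL replicate 1 it was -3.33 points.

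**Figure D3:**
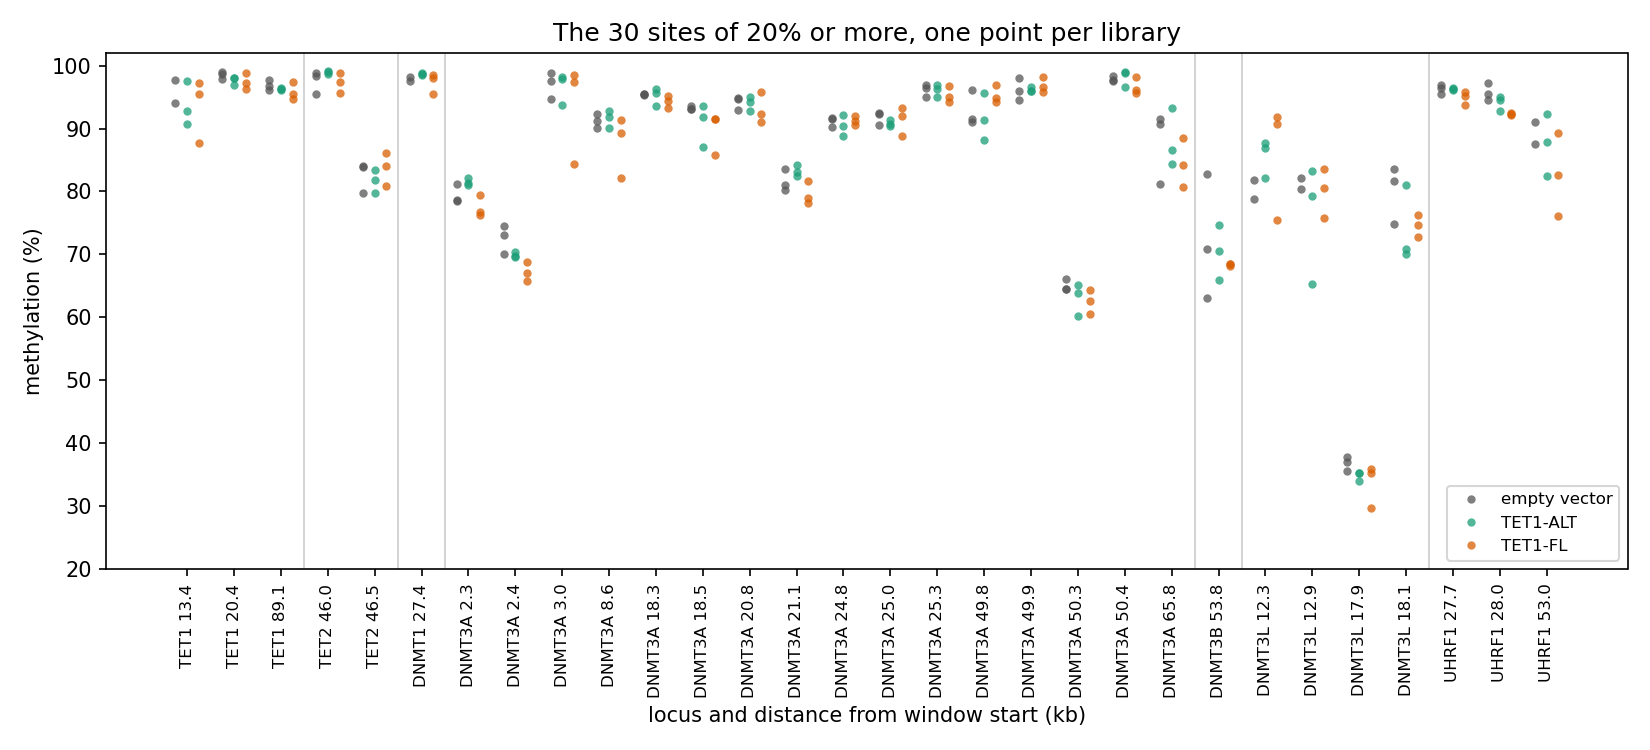
Methylation in percent (vertical axis, from 20%) of the 30 member sites of 20% or more, with 1 point per library coloured by group. The horizontal axis names the locus and the distance in kb from the window's start, and the lowest site, in DNMT3L, lies between 29.7% and 37.8% in all 9 libraries.

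The comparison of TET1-FL with the empty vector asks whether full-length TET1 lowered methylation at these genes. Methylated members averaged less in TET1-FL, as did methylated sites of the genome, and no single site passed the test. Over the 17 complete members of 20 to 95%, library means were 82.5%, 83.4% and 81.8% with the empty vector and 80.5%, 80.5% and 80.1% in TET1-FL. The TET1-FL libraries were all lower, and the difference was -2.22 points with pairwise differences from -3.32 to -1.29. The same class over the genome, 28189 sites, differed by -1.53 points (-2.07 to -0.874). DNMT3A supplied 12 of the 17 sites, where the means were 86.4% ± 0.414 and 84.5% ± 0.171 (SD, n = 3), a difference of -1.89 points (-2.54 to -1.44), again without overlap. With each library centred on its mean over sites of 80% or more the differences were -1.27 points for the 17 sites and -0.944 for DNMT3A, and the median over the 17 sites in place of the mean gave -3.74.

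**Figure D4:**
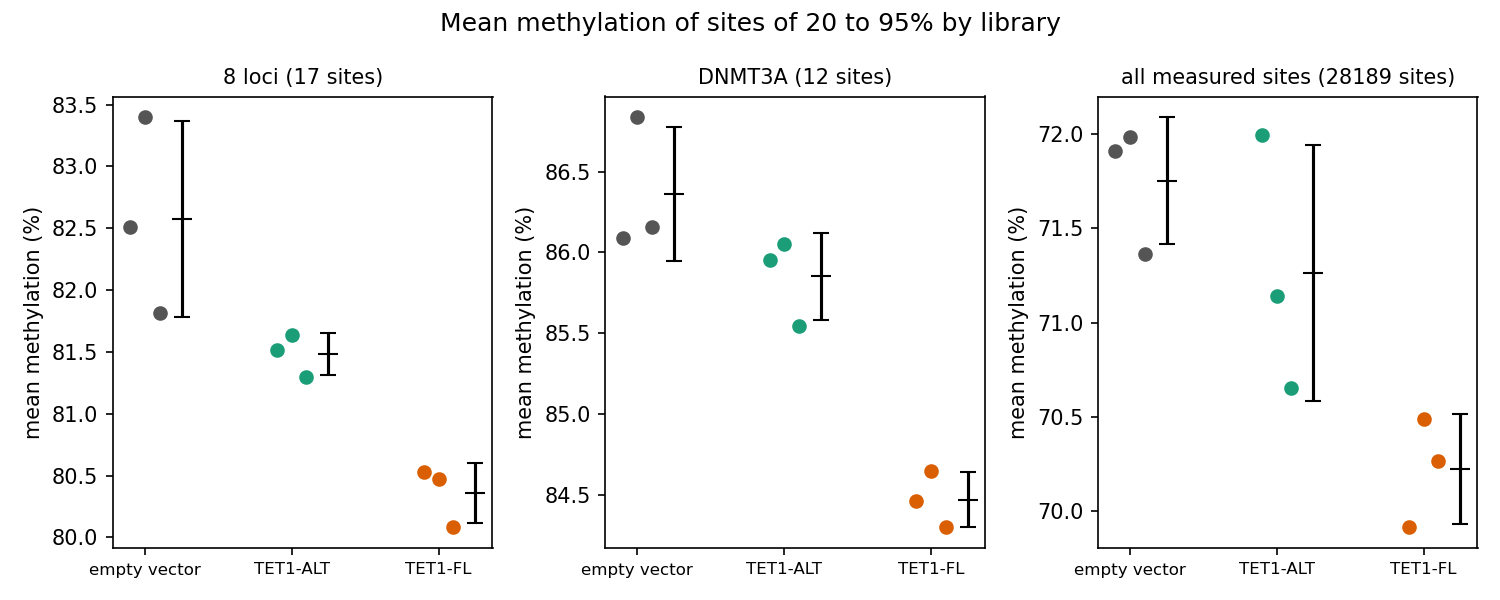
Mean methylation in percent per library over complete sites of 20 to 95%, for the 8 loci (17 sites), for DNMT3A (12 sites) and for all measured sites (28189 sites), with the group mean and SD in black beside the points. The vertical axes do not start at 0 and differ between panels, and the TET1-FL libraries are the lowest in each.

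In limma 0 of 68 members passed an adjusted p of 0.05 between TET1-FL and the empty vector, beside 0 of 64313 sites (0%). With an unadjusted p below 0.05, 2 members were lower and 0 higher, beside 9.39% and 1.16% of all sites. A lower mean in TET1-FL was seen at 25 of 30 methylated members, beside 72.2% of tested sites of 20% or more, and the median difference was -1.41 points beside -1.16. Library ranges were apart downwards at 5 of 25 complete methylated members, beside 15.7%, and upwards at 0, beside 1.9%. The members' share was below that of all sites for the unadjusted p, counted over sites of every level. It was above that of all sites for the lower mean, counted over methylated sites only. Sites under 5% were 55.9% of members and 37.5% of all tested sites, so the first pair of shares mixes unlike sets. Neither difference in share was tested. Without empty vector replicate 2, 2 sites of the genome passed and no member did. Centring subtracts 1 constant from every site of a library, and under it 34 members passed, all of them unmethylated sites and all higher, by 0.787 to 1.22 points, beside 26.7% of all sites called higher.

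The 5 members with separate ranges were the UHRF1 site chr19:4933021 and 4 in DNMT3A. At chr2:25452404, DNMT3A had 73.1%, 74.6% and 70.1% in the empty vector group, 69.7%, 70.4% and 69.6% in TET1-ALT and 68.8%, 67.1% and 65.7% in TET1-FL. The TET1-FL difference was -5.39 points (95% interval -8.87 to -1.91, SE 1.498, unadjusted p = 0.00758, limma adjusted p = 0.413). The others were chr2:25468258 at -1.13 points, chr2:25468488 at -3.67 and chr2:25500259 at -2.58. At chr2:25468488 the low library was TET1-FL replicate 3 at 85.7%, beside 91.5% in the other TET1-FL libraries, and the difference without it was -1.75 points. The sites chr2:25452975 and chr2:25458570 had their low value in TET1-FL replicate 2, at 84.4% and 82.2%, beside 97.4% to 98.4% and 89.2% to 91.4% in the other TET1-FL libraries. At the second of these the difference of -3.62 points (SE 2.21) was -0.918 without replicate 2. TET1-FL replicates 2 and 3 were the lowest of the 9 libraries at 8 and 6 of the 25 complete methylated members. They were the highest at 3 and 1. Empty vector replicate 2 was the highest at 6 and the lowest at 0, and TET1-ALT replicate 3 was the highest at 6 and the lowest at 3.

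TET1-ALT, which the series' title describes as lacking the CXXC domain, was compared with the same empty vector libraries. Over the 17 complete members of 20 to 95% its libraries were at 81.5%, 81.6% and 81.3%, below all empty vector libraries, a difference of -1.09 points with pairwise differences from -2.10 to -0.178. Over the 25 complete methylated members the ranges overlapped (difference -0.754, pairwise -1.52 to 0.01), as they did over the 28189 sites of the genome (-0.489, pairwise -1.33 to 0.63). In DNMT3A the difference was -0.510 points with pairwise differences from -1.29 to -0.035. Without empty vector replicate 2, the highest library, the difference was -0.680 points for the 17 sites and -0.272 for DNMT3A. Averaging each locus first gave -1.79 points, the median over the 17 sites gave -2.53, and that over the DNMT3A sites gave -1.17. Centred libraries gave -0.827 points for the 17 sites and -0.245 for DNMT3A.

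In limma 0 of 68 members passed an adjusted p of 0.05 between TET1-ALT and the empty vector, beside 0 of 64313 sites (0%). With an unadjusted p below 0.05, 0 members were lower and 1 higher, the DNMT3B site given above, beside 5.52% and 1.78% of all sites. Without empty vector replicate 2, 4 sites of the genome passed and no member did. The mean in TET1-ALT was lower at 21 of 30 methylated members, beside 58.1% of tested sites of 20% or more, with medians of -0.62 and -0.343 points. Ranges were apart downwards at 1 of 25 complete methylated members, the DNMT3L site chr21:45680928, beside 7.37%, and upwards at 0, beside 3.48%. Single differences of methylated members ranged from -6.07 to 5.30 points in TET1-ALT and from -6.62 to 5.72 points in TET1-FL, with SE from 0.665 to 5.26.

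**Figure D5:**
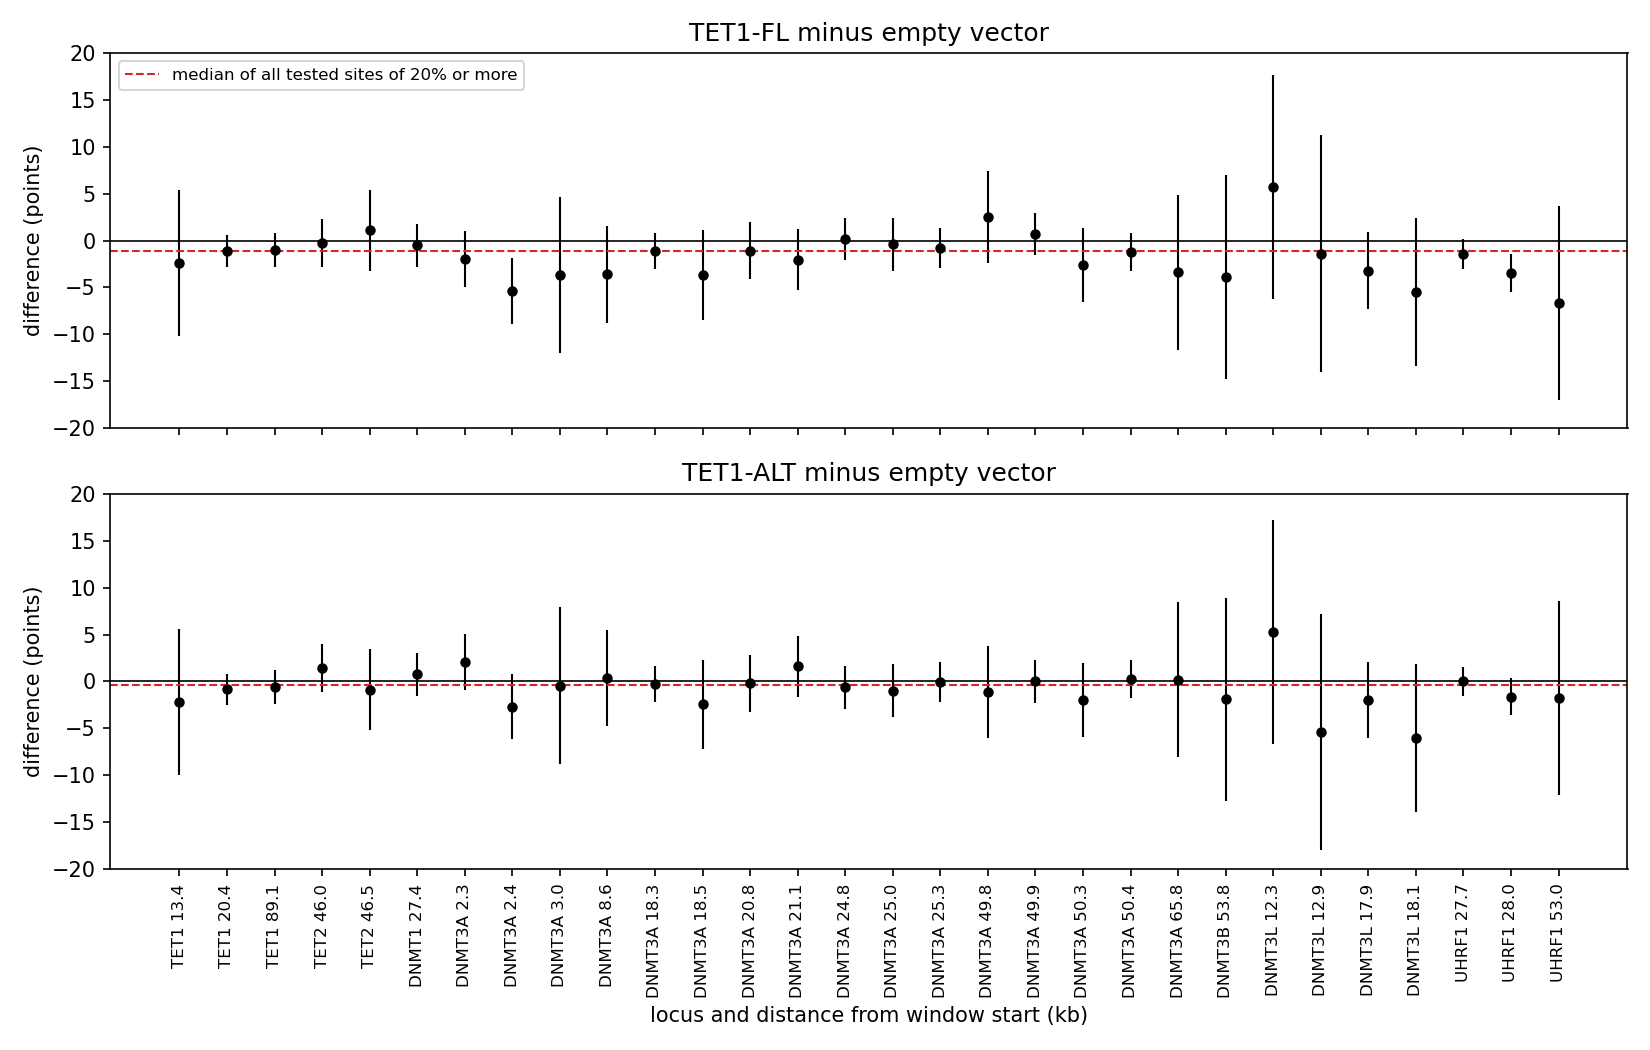
Difference in methylation in percentage points from the empty vector (vertical axis) at the 30 member sites of 20% or more, for TET1-FL above and TET1-ALT below, with limma 95% intervals that are not adjusted for the number of sites. The dashed line is the median of all tested sites of 20% or more, at -1.16 and -0.343 points, and both panels share the empty vector libraries.

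The TET1 forms were also compared directly. Over the 17 complete members of 20 to 95% TET1-FL was lower than TET1-ALT by 1.12 points on average (difference -1.12, pairwise -1.56 to -0.768), with separate libraries, where the genome had -1.04 points (-2.08 to -0.163), also separate. In DNMT3A the difference was -1.38 points (-1.75 to -0.902). Centred libraries gave -0.441 points for the 17 sites and -0.699 for DNMT3A, averaging each locus first gave -0.717, and the DNMT3A median gave -0.605. In limma 0 of 68 members passed an adjusted p of 0.05, beside 0 of 64313 sites (0%), and with an unadjusted p below 0.05, 2 were lower and 0 higher, beside 4.26% and 1.14%. Both were in DNMT3A, chr2:25452257 at 81.5% ± 0.602 in TET1-ALT and 77.5% ± 1.65 in TET1-FL (limma adjusted p = 0.883), and chr2:25471062 at 83.2% ± 0.937 and 79.6% ± 1.86 (limma adjusted p = 0.912). The empty vector means at these sites were 79.5% and 81.6%, between those of the TET1 forms. Ranges were apart downwards at 5 of 25 complete methylated members, 3 in DNMT3A and 2 in UHRF1, beside 10.6%, and upwards at 0, beside 2.08%. TET1-FL had the lower mean at 22 of 30 methylated members, beside 67.1%.

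Other genes of the methylation system were looked for by the same match of CCCGGG spacing. Of 30 genes listed, 27 had a RefSeq window, 12 had CCCGGG in one and 3 could be placed on hg19, NEIL1, CXXC5 and NSD1, with 12 measured sites. NEIL1 is a DNA glycosylase of base excision repair, CXXC5 a CXXC-domain protein and NSD1 a histone H3K36 methyltransferase. All 3 NEIL1 sites were under 0.4% in every library. In CXXC5 the levels fell along 6 sites from 30.8% at chr5:139027276 through 2.05%, 0.421% and 0.227% to 0.05% and 0.046% at chr5:139028515. In NSD1 the first site, chr5:176559912, had 82.8% ± 1.65 in the empty vector group, 79.6% ± 1.73 in TET1-ALT and 77.0% ± 4.24 in TET1-FL, and the next, 591 bases on, had 0.276%. The NSD1 difference in TET1-FL was -5.78 points (SE 2.20, limma adjusted p = 0.446), and 0 of the 12 sites passed in any comparison.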

How the data were processed

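The authors deposited 1 table of percent methylation per CCCGGG site and library on hg19, the build named in the submitters' processing notes. Per the series' design text, each percentage is the methylated share of the counts at a site, adjusted for enzyme efficiency with spiked-in standards. Per the labels, a site needed 20 reads and libraries had 18 PCR cycles. The aligner is not given in the sources used here. The table holds no read depth, so no interval on a single value is given.

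Groups were taken from sample titles. Each of the 64313 sites with at least 2 values per group was fitted with limma 3.58.1 (R 4.3.3, trend and robust moderation) on the percentages of all 9 libraries, with Benjamini-Hochberg adjustment over all sites. The fit was tested on simulated data for TET1-FL against the empty vector over 64313 sites. It called 4% of sites lowered by 5 points, 26% by 10, 52% by 20 and 72% by 30, of 50 each, and 6 unchanged sites. The changes were set only at methylated sites under 95%, so these rates do not cover unmethylated members or those over 95%. The simulated noise was independent between sites and libraries, with no shift common to a library. Means over sites used complete sites and carry no p. Locus windows in hg19 were chr10:70315000-70457000 (TET1), chr4:106064000-106203000 (TET2), chr2:74210000-74338000 (TET3), chr19:10240000-10309000 (DNMT1), chr2:25450000-25570000 (DNMT3A), chr20:31345000-31400000 (DNMT3B), chr21:45663000-45685000 (DNMT3L) and chr19:4905000-4965000 (UHRF1).

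Members and lists were chosen with earlier results of these data known. Named sites were the ends and neighbours of the longest unmethylated run of each locus, up to 4 sites with the lowest p for TET1-FL and up to 2 for TET1-ALT against the empty vector, any member past the threshold or apart by 10 points, and each methylated TET1 site. Other sites described were chosen after their values were seen, among them the DNMT3A sites 25500259, 25471062, 25475041 and 25475297. RefSeq windows were tied to hg19 sites by CCCGGG spacing, with no conversion of coordinates. Joining the windows of a gene within 1500 bases was chosen after seeing the data. The planned rule asked for at least 3 CCCGGG, and it was relaxed for UHRF1 and DNMT3A to pairs found once in the locus window. Exon and intron positions were not analysed here. The match of 1 further locus to a RefSeq window is not reported here.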

Additional observations from a re-analysis of the deposited data

Results flagged for a closer look

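Within the 8 windows, 6 sites that were not members had a value in a TET1 library and none in any empty vector library, so no comparison used them. The DNMT3A site chr2:25562651, before the unmethylated run, had 50.49% in TET1-ALT replicate 3 and 64.86% in TET1-FL replicate 3. The TET3 site chr2:74227561 had 1.62% in TET1-FL replicate 3, and the TET2 site chr4:106074005 had 97.76% in TET1-ALT replicate 3. In DNMT3L, chr21:45663663 had 53.23% in TET1-ALT replicate 3 and 40.23% in TET1-FL replicate 3. The DNMT3L site chr21:45674549 had 57.85% in TET1-FL replicate 3, and chr21:45676401 had 97.13% in TET1-FL replicate 1. TET1-FL replicate 3 had the most values of the series, 72340, and the part of depth in these values was not tested.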

How the results depend on the processing

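The direction of the mean difference over the 17 members of 20 to 95% and over DNMT3A was the same in each alternative run. For TET1-FL against the empty vector the member mean was -3.74 points as a median, -1.27 centred and -2.60 to -1.80 without single libraries. For TET1-ALT it was -1.79 with loci averaged first, -2.53 as a median, -0.827 centred and -1.47 to -0.680 without single libraries. TET1-FL against TET1-ALT gave -0.717 with loci averaged first, -0.441 centred and -1.22 to -0.983. In DNMT3A the values were -0.944 centred (-2.03 to -1.65 without single libraries), -1.17 as a median and -0.245 centred for TET1-ALT (-0.646 to -0.272), and -0.605 as a median and -0.699 centred between the TET1 forms (-1.53 to -1.28). Sites called numbered 17666 for TET1-FL against the empty vector after centring, 512 lower and 17154 higher, where unmethylated sites shift by a library constant. Without single libraries they numbered 0 to 2 for TET1-FL and 0 to 4 for TET1-ALT against the empty vector, both highest without empty vector replicate 2, and 0 between the TET1 forms. In the 14 settings other than centring, 0 members were called in 42 fits, with a lowest limma adjusted p of 0.343.

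Of 400 values of named sites under alternatives, 386 kept their direction and side of the threshold. Reversals for TET1-FL against the empty vector came without single libraries at TET1 70328405 (-4.28 to 0.475), TET2 106110457 (-0.257 to 2.53), TET2 106110003 (-1.32 to 0.587), DNMT1 10267387 (-1.115 to 0.42), DNMT3B 31398823 (-8.48 to 1.39) and DNMT3L 45675875 (-3.175 to 0.69). Centring reversed TET2 106110003 (0.701), DNMT1 10267387 (0.554) and DNMT3B 31350129 (0.881, and 0.219 for TET1-ALT). The cause of the reversals was not tested. Same-numbered libraries did not deviate together from site to site (correlations from -0.0153 to 0.0169 over 9 pairs). Such a correlation cannot show a shift common to all sites of a library. Whether same-numbered libraries share such a shift or a batch was not tested. With the replicate block 0 sites were called in each comparison, and DNMT1 10267387 turned to 0.000833. A stricter read minimum was not run, since the table has no depth, which also limits the precision of every single value.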

Other observations

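On the side before the windows the nearest tested sites were all methylated and ranged from 83.97% at 31 bases from the DNMT3L window to 99.74% at 17180 bases from TET2. After the window, 3 of the 8 sites were under 5%. The one nearest to TET2, 613495 bases on, had 0.273%, a site 7855 bases past DNMT3B had 1.24%, and one 4433 bases past UHRF1 had 1.12%. Another past the DNMT3L window, at 1710 bases, had 49.6%, with libraries from 41.7% to 60.0%. The DNMT3L site chr21:45681706 had a value in 6 libraries, from 87.08% to 94.55%, and in 1 empty vector library only.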
